A study of Mus musculus with 11 samples.

Results

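The genes described here are 10 genes of the G1 phase and of entry into S phase, Ccnd1, Ccnd2, Ccnd3, Cdk4, Cdk6, Ccne1, Ccne2, Ccna2, Cdk2 and Skp2, out of 22359 protein-coding genes in the annotation. The rule that names them is a list of genes with no measured value in it, and each gene was examined over its gene body with 10 kb on each side on mm9. The list was drawn up with earlier results of these data known. PU.1 occupancy was measured by ChIP-Seq, in which DNA bound by a protein is recovered with an antibody and sequenced beside input DNA taken before the immunoprecipitation. MEL cells are a mouse erythroleukemia line, here clone 4 of a stable transfection with Gata-1 fused to ER, the estrogen receptor part, so that every MEL library carries this fusion. ES-EP are erythroid progenitors derived from embryonic stem cells, for which the labels name no fusion, and were kept in culture with Epogen (erythropoietin), hIGF-1, dexamethasone and murine SCF. In each cell type 2 preparations (A and B) were precipitated with the same antibody, anti-PU.1 (T-21), and sequenced as 2 libraries each, which were summed, so that n = 2 preparations. That the letter in a library's title stands for its preparation was assumed, since the labels do not spell it out, and the ES-EP files carry the letters C and D for the same division. MEL cells had 1 input library and ES-EP had 2. The study's methods describe the preparations of chromatin as independent, but neither they nor the labels say whether separate cultures were used. The test between the cell types measures the spread between these preparations only. Exact Poisson tests of each preparation against input cover the counting error of its PU.1 reads and take the input as known. The files hold read positions and no RNA, so the identity of the cells was not checked against expression markers.

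Cells leave G1 when D-type cyclins, with the kinases Cdk4 and Cdk6, and then E-type cyclins, with Cdk2, phosphorylate the Rb proteins and release E2F transcription factors. Cyclin A2 follows as S phase begins, and Skp2, the substrate-binding F-box subunit of an SCF ubiquitin ligase, marks the CDK inhibitor p27 for degradation. PU.1, encoded by Sfpi1, is an Ets family transcription factor that binds purine-rich DNA around GGAA, is needed in myeloid and B cells, and is known to hold back terminal differentiation of erythroid cells.

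PU.1 reads stood above input at the promoters of Cdk2 and Ccnd2 in both cell types. At the Ccne2 promoter they stood above input in MEL cells only. There the depth-scaled PU.1 reads of the cell types overlapped, and the input was lower in MEL cells than in ES-EP. Inside or beside Skp2, Cdk6, Ccnd3 and Cdk4 a single window away from the promoter stood above input in MEL cells, and the one beside Cdk4 also did in ES-EP. No window met the rule around Ccnd1, Ccne1 or Ccna2. None of the windows tested in the 10 loci differed between MEL cells and ES-EP once p values were adjusted over all windows of the genome (limma voom), and 2 of them, both at Ccnd3 and in opposite directions, had an unadjusted p below 0.05. A window of 500 bp was called when both preparations exceeded the local depth-scaled input in an exact Poisson test (one-sided, adjusted p below 0.05 over all windows of the genome). Above input means called by this rule in this paragraph. By ratio alone, every preparation was also above input in a promoter window of Cdk6 and of Skp2 that was not called.

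The sequences under these read maxima are shown as the places where the calls lie, and no call or ratio uses them. Each is taken from NCBIM37 (mm9) and lies within 150 bp of the position with the most PU.1 reads in 100 bp. For this the reads of all PU.1 libraries of both cell types were pooled without scaling, also where only MEL cells had a call. Exons were left out of the stretches, so that the Cdk2 sequence ends at the start site. The maximum upstream of Cdk4 lies wholly in an exon, and there only the 30 bp around the PU-box word are given. Of the 3 neighbouring windows called at Ccne2 the middle one is shown, chosen after the words were counted, and it is not the highest. Capitals mark words that were searched on both strands, the PU-box word GAGGAAGT, the shorter GAGGAA that it contains, and 4 spellings of the E2F consensus (TTTCCCGC, TTTCGCGC, TTTGCCGC and TTTGGCGC). Sequences of a gene are on its coding strand.
Cdk2 promoter, chr10:128142108-128142370, minus strand: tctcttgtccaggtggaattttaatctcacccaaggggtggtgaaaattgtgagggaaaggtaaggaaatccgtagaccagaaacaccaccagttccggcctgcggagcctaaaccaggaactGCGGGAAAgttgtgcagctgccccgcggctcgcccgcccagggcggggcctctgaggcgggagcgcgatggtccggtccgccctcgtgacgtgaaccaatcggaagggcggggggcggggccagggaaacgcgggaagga
Ccnd2 promoter, chr6:127101661-127101960, minus strand: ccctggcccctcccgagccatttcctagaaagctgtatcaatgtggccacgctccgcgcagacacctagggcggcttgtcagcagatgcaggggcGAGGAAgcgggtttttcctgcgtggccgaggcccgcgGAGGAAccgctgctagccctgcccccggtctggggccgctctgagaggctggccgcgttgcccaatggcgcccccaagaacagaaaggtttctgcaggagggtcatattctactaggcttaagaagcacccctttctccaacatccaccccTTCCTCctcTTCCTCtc
Ccne2 promoter, chr4:11118181-11118480, plus strand: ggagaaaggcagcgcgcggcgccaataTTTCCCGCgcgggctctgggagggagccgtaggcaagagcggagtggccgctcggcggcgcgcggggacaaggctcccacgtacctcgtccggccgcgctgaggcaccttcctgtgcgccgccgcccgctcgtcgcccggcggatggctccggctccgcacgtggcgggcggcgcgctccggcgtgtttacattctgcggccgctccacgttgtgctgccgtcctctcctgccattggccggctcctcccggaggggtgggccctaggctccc
Skp2 intron, chr15:9052811-9053110, minus strand: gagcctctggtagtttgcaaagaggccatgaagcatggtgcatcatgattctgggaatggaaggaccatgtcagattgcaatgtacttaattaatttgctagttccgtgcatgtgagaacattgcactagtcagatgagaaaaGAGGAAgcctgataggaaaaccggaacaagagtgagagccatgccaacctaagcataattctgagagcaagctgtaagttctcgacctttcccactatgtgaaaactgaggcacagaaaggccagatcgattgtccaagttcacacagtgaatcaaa
Downstream of Ccnd3, Bysl intron, chr17:47746131-47746430, plus strand: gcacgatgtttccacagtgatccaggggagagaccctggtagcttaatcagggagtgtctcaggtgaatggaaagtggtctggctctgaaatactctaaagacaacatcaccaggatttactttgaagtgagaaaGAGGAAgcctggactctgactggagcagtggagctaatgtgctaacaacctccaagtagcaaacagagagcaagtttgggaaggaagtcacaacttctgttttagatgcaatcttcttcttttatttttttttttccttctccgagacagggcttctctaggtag
Cdk6 intron, chr5:3505571-3505870, plus strand: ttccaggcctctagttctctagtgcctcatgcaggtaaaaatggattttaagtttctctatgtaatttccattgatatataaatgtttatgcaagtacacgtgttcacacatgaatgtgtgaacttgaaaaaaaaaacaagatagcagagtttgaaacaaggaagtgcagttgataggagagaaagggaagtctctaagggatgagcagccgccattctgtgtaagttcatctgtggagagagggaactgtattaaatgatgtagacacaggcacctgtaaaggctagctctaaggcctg
Upstream of Cdk4, site in the March9 3′ UTR, chr10:126492625-126492654, plus strand: ttgcagtatcgACTTCCTCttttgcttctc

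The Cdk2 and Ccne2 promoter sequences each hold 1 E2F word, TTTCCCGC, on the strand opposite to the gene at Cdk2 and on the same strand at Ccne2. Its middle lies 137 bp before the Cdk2 start site and 289 bp before the first Ccne2 start site. The 300 bp at the maxima of the other 2 called Ccne2 windows, the highest one included, held none of the words. Neither printed promoter holds GAGGAA. The Ccnd2 sequence holds GAGGAA 4 times, 2 on each strand, and the Skp2 and Ccnd3 sequences hold it once. The full PU-box word was found once, in the site upstream of Cdk4, and the Cdk6 intron held none of the words. Only exact words were searched, so that a missing word does not show that a PU.1 site is absent. The Cdk6 sequence holds aaggaagt, which differs from the PU-box word in 1 base. Among 3972 stretches of 300 bp at called windows near a transcription start site (TSS), 15.2% held the PU-box word, 43.2% held GAGGAA and 3.80% held an E2F word. Among 5687 such stretches away from every TSS the shares were 40.8, 68.3 and 0.580%. In the 300 bp from 250 before to 50 after the first TSS of every protein-coding gene they were 3.13, 28 and 2.77%. In that stretch Cdk2 held 1 E2F word, Ccnd2 held GAGGAA 2 times, and the other 8 genes held none of the words.

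The preparations have between 5697937 and 7095855 reads on the chromosomes, and the inputs have 4278560 reads (MEL cells) and 7488885 reads (ES-EP), so that a window holds 0.914 input reads on average in MEL cells, against 1.60 in ES-EP. As a control of the immunoprecipitation, the highest window at Sfpi1, in its upstream element, had 23 and 96 PU.1 reads in MEL preparations A and B beside 4 in the input, and 33 and 38 in ES-EP beside 3, and it was called in both cell types. The window was picked for its PU.1 reads, which by itself raises it over input. It lies 704 bp from the nearest annotated Sfpi1 TSS and 13686 bp from the farthest. The share of reads that fell within 2 kb of a TSS was 7.67% in the MEL input and 9.31 and 11.2% in the ES-EP inputs. In the PU.1 libraries it was 8.97 and 9.67% (MEL A), 11.5 and 13.5% (MEL B), 13.3 and 16.4% (ES-EP A) and 9.43 and 11.8% (ES-EP B), so that ES-EP B lay close to its inputs. Such windows are 4.58% of those with a read. Library 2 had a higher share than library 1 in every preparation and in the ES-EP input. The MEL input has no second library, and the part of this library difference in the MEL calls was not tested. Reads were then compared with input at every window. In MEL cells 7296 of 4679974 windows with a read (0.156%) were called, and in ES-EP 5127 (0.110%). Among windows within 2 kb of a TSS the shares were 1.45% for MEL cells against 0.934% for ES-EP. A gene with such a call near a TSS was found 2963 times (13.3% of genes) in the MEL line, compared with 2029 times (9.07%) in the progenitors. The 10 loci hold 1124 windows with a read, of which 9 were called in the MEL line, compared with 3 in the progenitors. A called window within 2 kb of a TSS was found for 3 of the 10 genes in MEL cells (Ccnd2, Ccne2 and Cdk2), for 2 in ES-EP (Ccnd2 and Cdk2), and for these 2 in both, where the share of all genes with a call in both was 5.70%. Since the genes were listed with earlier results of these data known, these counts beside the shares of all genes test nothing. The exact binomial test against the input of the window alone left no call near these genes in MEL cells and 1 in ES-EP (Cdk2), where 2.20 and 3.94% of all genes had a called promoter window.

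Ccnd2 encodes cyclin D2, a partner of Cdk4 and Cdk6 that responds to growth signals. Its highest promoter window, chr6:127101501-127102000, lies with its midpoint 685 bp before the TSS and outside the gene. It had 15 reads in MEL preparation A, 21 in B and 1 in the input, and 48, 33 and 8 reads in ES-EP A, B and input. All 4 preparations stood above the input of their cell type. Scaled to 1000000 reads per preparation or input (RPM), the level was 2.82 ± 0.264 RPM in MEL cells (SD, n = 2), where the input had 0.234. For ES-EP it was 6.14 ± 2.11 RPM (SD, n = 2), where the input had 1.07. The ratio of ChIP to input was 12.1 in MEL cells (95% counting interval 2.04 to 493, from 1 input read) and 5.67 in ES-EP (2.74 to 13.6). Adjusted p values from the exact Poisson test were 0.00344 and 3.79e-06 for MEL A and B, with 9.92e-22 and 1.94e-08 for ES-EP. With windows shifted by 250 bp Ccnd2 was no longer called in MEL cells.

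**Figure D1:**
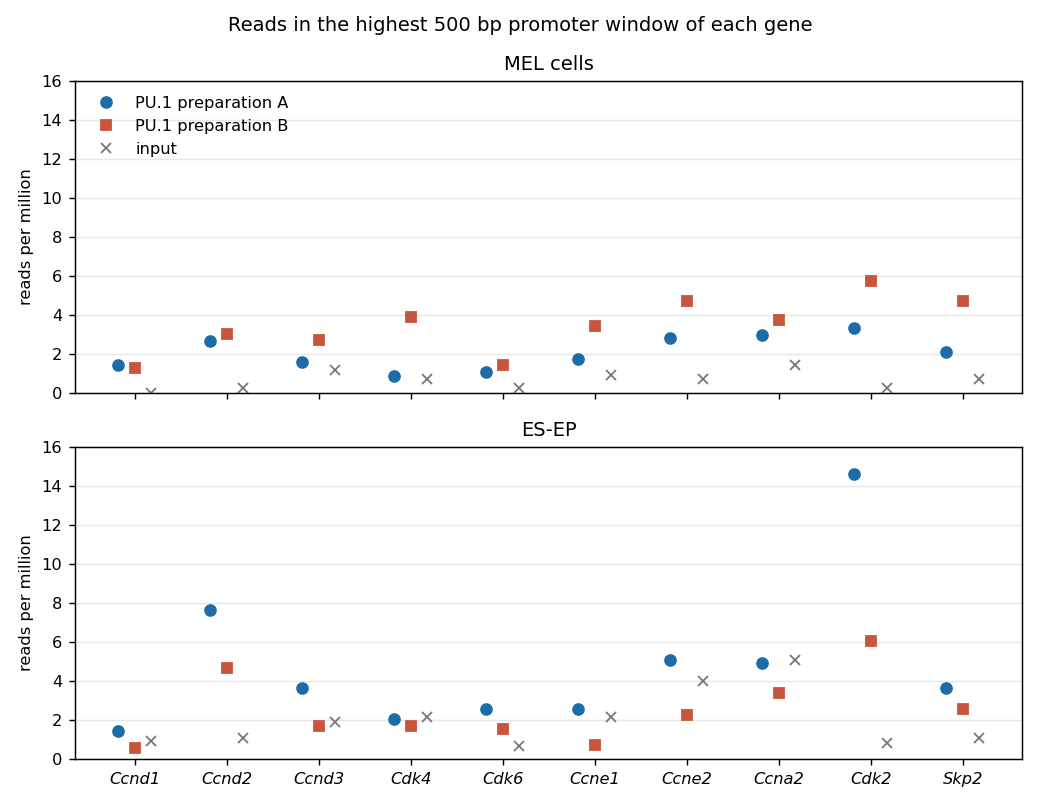
RPM in the highest 500 bp promoter window of each of the 10 genes, with MEL cells in the upper and ES-EP in the lower panel. Circles and squares are PU.1 preparations A and B and crosses are the input. The highest value is that of Cdk2 in ES-EP preparation A, 14.6 RPM, and at Ccne2 and Ccna2 the ES-EP inputs reach 4.01 and 5.07.

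Ccnd1 and Ccnd3 encode the other two D-type cyclins. At the Ccnd1 TSS the highest window had 8, 9 and 0 reads in MEL A, B and input and 9, 4 and 7 in ES-EP. With a floor of 3 reads for the empty input the MEL ratio was 1.91, without an interval, and the ES-EP ratio was 1.04 (0.385 to 3.08). In ES-EP, A was at 1.53 and B at 0.603. Neither cell type had a call. At Ccnd3, which has 2 annotated starts, the highest promoter window lies at the inner one, with its midpoint 335 bp past that start. It held 9, 19 and 5 reads in MEL A, B and input and 23, 12 and 14 in ES-EP, with ratios of 1.89 (0.720 to 6.26) and 1.40 (0.734 to 2.82), neither called. Here ES-EP A was at 1.96 and B at 0.905. A called window stood at chr17:47746001-47746500, past the 3′ end of Ccnd3, where 15 and 18 MEL reads lay beside 3 in the input. The larger adjusted p was 0.0120 (MEL A, exact Poisson), so that the call is lost at a threshold of 0.01. In ES-EP it held 7, 2 and 3 reads and was not called. This window is in an intron of Bysl, whose TSS is 2190 bp away and nearer than that of Ccnd3.

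Cdk4 and Cdk6 encode the kinases that D-type cyclins activate. The highest Cdk4 promoter window, 91 bp past the nearest TSS at its midpoint, had 5 reads in MEL A and 27 in MEL B beside 3 in the input. Preparation B alone passed the test there (adjusted p = 2.75e-09, exact Poisson). The same window had 13, 12 and 16 reads in ES-EP A, B and input, a ratio of 0.875 (0.449 to 1.75). The called window of this locus, chr10:126492501-126493000, is 7839 bp upstream and falls in the 3′ UTR of March9, which encodes a membrane-bound E3 ubiquitin ligase. It had 14, 22 and 2 reads in MEL A, B and input and 11, 12 and 0 in ES-EP, and was called in both cell types, in ES-EP with adjusted p values of 0.0161 and 0.0260 (exact Poisson) that do not pass 0.01. The ratio was 6.07 (1.56 to 52.0) in MEL cells and, against the floor of 3 input reads and without an interval, 4.29 in ES-EP.

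At the Cdk6 promoter the highest window, 1642 bp before the TSS, had 6, 10 and 1 reads in MEL A, B and input and 16, 11 and 5 in ES-EP. MEL B (adjusted p = 0.00538) and ES-EP A (adjusted p = 0.00340) passed the exact Poisson test, and the other preparation of each cell type did not, so that no call was made. Inside the gene, the intronic window chr5:3505501-3506000 had 13, 20 and 1 reads in MEL cells, against 12, 5 and 0 in ES-EP. It lies 161439 bp past the TSS. It was called in MEL cells, with a ratio of 11.1 (1.86 to 453) and an adjusted p of 0.0146 in MEL A (exact Poisson), which does not pass 0.01. In ES-EP only preparation A passed.

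Ccne1 and Ccne2 encode cyclins E1 and E2, which activate Cdk2 at the end of G1. The Ccne2 promoter held 3 neighbouring windows called in MEL cells, from chr4:11117501 to 11119000. The highest of them starts at the first TSS and had 16, 33 and 3 reads in MEL A, B and input. The 2 windows upstream of it had 10, 21 and 1 reads and 9, 28 and 1 reads. The call of the middle window, whose sequence is shown above, rests on an adjusted p of 0.0398 in MEL A (exact Poisson) and is lost at 0.01. In ES-EP the same 3 windows had 30 to 32 reads in preparation A and 16 to 21 in B, but also 26, 28 and 30 in the input. The ratio in the highest window was 5.51 (1.78 to 27.6) in MEL cells and 0.895 (0.556 to 1.46) in ES-EP. There the ES-EP preparations lay on either side of 1, A at 1.27 and B at 0.563. Both ES-EP input libraries contributed, with 9 and 21 reads, or 3.69 and 4.16 RPM, against 0.701 RPM in the MEL input. The PU.1 level itself was 3.77 ± 1.35 RPM in MEL cells, compared with 3.67 ± 2.01 RPM in ES-EP (SD, n = 2), and the preparations overlap. The part of the input in the missing ES-EP call was not tested beyond using each input library alone, and neither gave a call at Ccne2. The MEL calls rest on 1 input library, with 3 reads in the highest window and 1 in each of the others. The part of that input in the MEL calls was not tested.

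**Figure D2:**
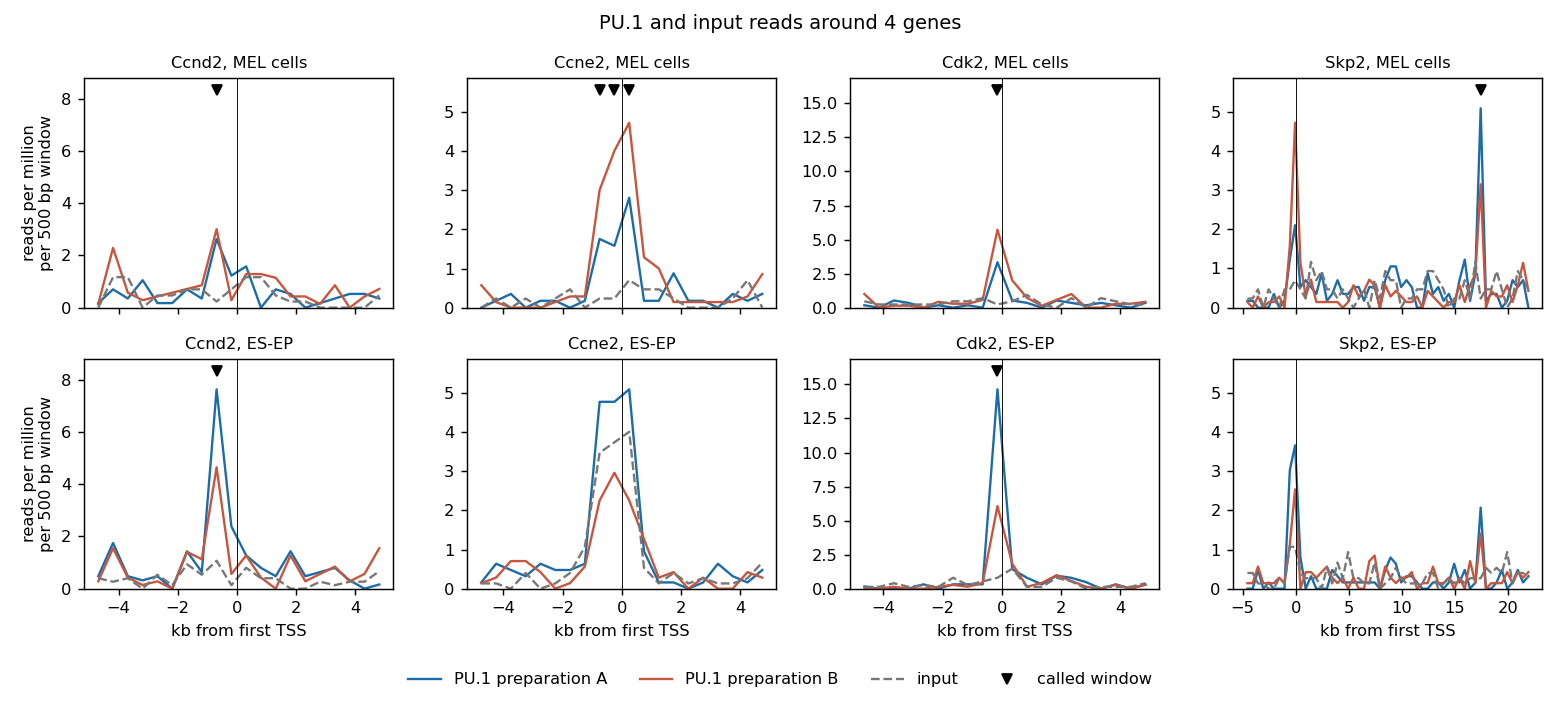
PU.1 preparations A and B (solid lines) and input (dashed lines), in RPM per 500 bp window, against the distance from the first TSS in kb, for Ccnd2, Ccne2, Cdk2 and Skp2, with MEL cells in the upper and ES-EP in the lower row. Triangles mark called windows. The ES-EP input rises to 4.01 RPM over the Ccne2 promoter, and Skp2 shows a maximum at the TSS and another 17456 bp into the gene.

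The Ccne1 and Ccna2 promoters were not called in either cell type, and in ES-EP their ratios over both preparations were below 1. Ccne1 had 10, 24 and 4 reads in MEL A, B and input and 16, 5 and 16 in ES-EP, with ratios of 2.87 (1.02 to 11.1) and 0.735 (0.365 to 1.51). Its ES-EP preparations lay on either side of 1, A at 1.19 and B at 0.330. Ccna2, which encodes the cyclin of S phase and G2, had 17, 26 and 6 reads in MEL cells, against 31, 24 and 38 in ES-EP, with ratios of 2.42 (1.02 to 6.95) and 0.810 (0.526 to 1.26). Of the 38 ES-EP input reads at Ccna2, 6 came from input library 1 and 32 from library 2. In both genes MEL preparation B alone passed the exact Poisson test (adjusted p = 4.94e-05 for Ccne1 and 0.00371 for Ccna2). In RPM, the ES-EP input was higher than the MEL input in the highest promoter window of all 10 genes. Over the genome the ES-EP inputs also had more of their reads within 2 kb of a TSS (9.31 and 11.2%, against 7.67% in MEL cells). The share of all genes with a higher ES-EP input was not counted.

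Cdk2 encodes the kinase that E- and A-type cyclins activate. Its promoter had the highest PU.1 level of the 10 genes in both cell types, at the 93.2 percentile of all genes in MEL cells and the 96.5 percentile in ES-EP. The window chr10:128142001-128142500, with its midpoint 144 bp before the TSS, had 19, 40 and 1 reads in MEL A, B and input and 92, 43 and 6 in ES-EP. Every preparation was above its input, with ratios of 19.9 (3.44 to 799) in MEL cells and 12.6 (5.64 to 34.9) in ES-EP. The level was 4.53 ± 1.69 RPM in MEL cells, compared with 10.3 ± 6.07 RPM in ES-EP (SD, n = 2), and ES-EP B (6.06) lay next to MEL B (5.72). The exact Poisson test gave adjusted p values from 1.46e-76 (ES-EP A) to 2.55e-08 (MEL A). The nearest TSS of another gene, Pmel, which encodes a melanosome protein, is 1207 bp from that of Cdk2 and on the other strand. The amplicon that the study designed for Cdk2 spans chr10:128142236-128142375, and its forward primer, CAACTTTCCCGCAGTTCCTGGTTT, runs over the E2F word shown above. In 500 bp around its middle there were 19, 40 and 0 reads in MEL A, B and input and 90, 41 and 5 in ES-EP.

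**Figure D3:**
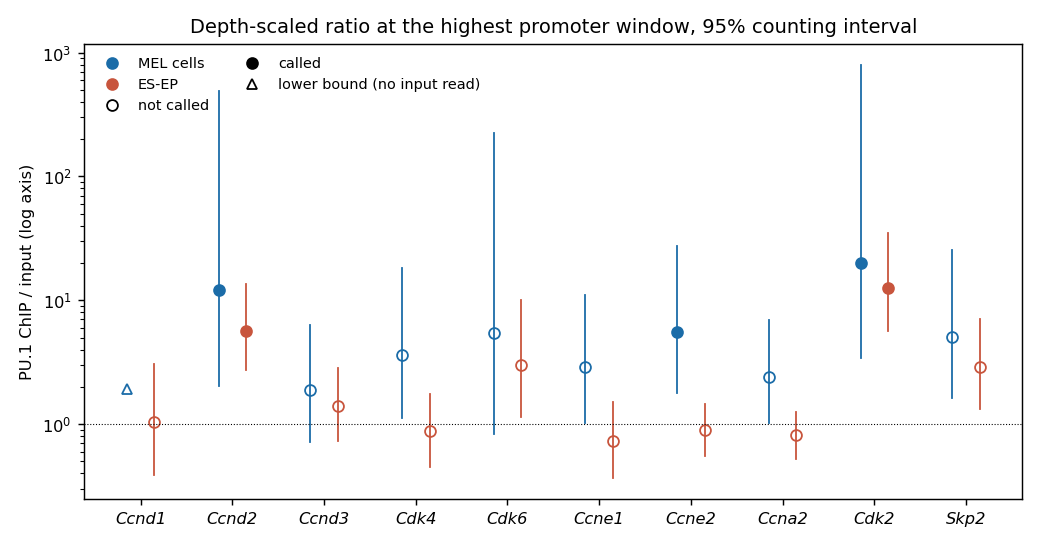
Ratio of depth-scaled PU.1 reads to input (log axis) in the highest promoter window of each gene, with 95% counting intervals. Blue is MEL cells and red is ES-EP, filled points were called, open points were not, and the open triangle is the lower bound of 1.91 for Ccnd1 in MEL cells. Among windows with an input read Cdk2 has the highest ratio in both cell types (19.9 and 12.6), and the intervals are wide where the input has few reads.

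Skp2 had reads at 2 places. At its TSS, which is 170 bp from that of Lmbrd2 on the other strand so that the genes cannot be told apart there, the highest window had 12, 33 and 3 reads in MEL A, B and input and 23, 18 and 8 in ES-EP. The ratios were 5.06 (1.62 to 25.5) and 2.87 (1.33 to 7.08). MEL B (adjusted p = 7.25e-14) and ES-EP A (adjusted p = 3.16e-04) passed the exact Poisson test and MEL A and ES-EP B did not, so that the window was not called. With windows shifted by 250 bp the Skp2 promoter was called in MEL cells. In an intron, 17456 bp past the TSS, chr15:9052501-9053000 had 29, 22 and 1 reads in MEL cells, against 13, 10 and 2 in ES-EP. It was called in MEL cells, at a ratio of 17.2 (2.95 to 693). In ES-EP the ratio was 6.44 (1.59 to 56.3) and only preparation A passed the test. The MEL input over the Skp2 locus was 1.52 times the ES-EP input (1.23 to 1.87), and over all of chromosome 15 it was 1.33 times the median of the autosomes.

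The study placed further amplicons at Ccnd2, Ccnd3, Ccne2 and Skp2, and reads were counted in 500 bp around the middle of each. The study describes its tested cell cycle genes as examples with a PU.1 peak near a TSS in these data. Reads at these amplicons are therefore no separate evidence. The Ccnd2 amplicon, 618 bp before the TSS, had 17, 22 and 1 reads in MEL A, B and input and 55, 34 and 9 in ES-EP. At Ccnd3 the numbers were 9, 19 and 5 in MEL cells, against 24, 13 and 15 in ES-EP. At Ccne2 they were 11, 26 and 3 in MEL cells, against 23, 11 and 22 in ES-EP. The Skp2 amplicon is at the TSS and not at the intronic window, and had 10, 31 and 5 reads in MEL cells, against 15, 11 and 5 in ES-EP. The lowest ratio of a preparation to its input was 4.76 at Cdk2, with the floor of 3 reads for the empty MEL input, and 3.99 at Ccnd2. It was 1.50 at Skp2, 0.915 at Ccnd3 and 0.528 at Ccne2.

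Over whole loci PU.1 reads stayed near input. The ratio of ChIP to input over gene body and flanks ranged from 0.732 (Ccne2, ES-EP B) to 1.78 (Cdk2, ES-EP A). The Cdk2 locus had ratios of 1.06 and 1.47 in MEL A and B, against 1.78 and 1.32 for ES-EP. The long Cdk6 locus had 0.895 and 0.916 in MEL cells, against 0.946 and 1.04 in ES-EP. The input of MEL cells over that of ES-EP was lowest at Ccne2, 0.545 (0.407 to 0.721), and highest at Ccne1, 2.04 (1.51 to 2.76). At Ccne1 it remained 1.71 when 500 kb on each side were taken, while the chromosome as a whole was 1.04 times the median of the autosomes. At Ccne2 it was 0.972 over that larger stretch.

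To compare the cell types, PU.1 reads of the 4 preparations were fitted with limma voom over 65012 windows with at least 20 PU.1 reads, of which 157 (0.241%) differed, 104 of them higher in the MEL line and 53 higher in the progenitors. Without ES-EP B the balance turned, with 7 and 34. Within 2 kb of a TSS 0.135% differed. Of 73 such windows in the 10 loci none differed (adjusted p at least 0.524), and 2 (2.74%) had an unadjusted p below 0.05, both at Ccnd3, against 6.46% of all windows tested. One of these, the window that starts at chr17:47730001, lies within 2 kb of a Ccnd3 TSS and was lower in MEL cells by estimate, -1.34 (-2.58 to -0.11, unadjusted p = 0.0331), and the other is the called window past the gene. The median log2 difference, MEL cells minus ES-EP, was -0.29 in these 73 windows and -0.09 in all windows tested. Both medians changed sign at 10 reads (0.16 and 0.08), without MEL A (0.08 and 0.06) and without ES-EP A (0.12 and 0.12), and that of all windows also with median-ratio scaling (0.01). Among the highest promoter windows Cdk2 had an estimate of -1.11 ± 0.67 (SE, 95% interval -2.42 to 0.21, adjusted p = 0.790), and Ccnd2 one of -1.07 ± 0.64 (-2.33 to 0.20). Leaving out 1 preparation moved Cdk2 to between -1.72 (ES-EP B) and -0.46 (ES-EP A). The fit uses PU.1 reads without input. Ratios to input went the other way, at 19.9 in MEL cells against 12.6 in ES-EP for Cdk2, and 12.1 against 5.67 for Ccnd2. Their counting intervals overlap. Higher in MEL cells by estimate were Ccne1, 0.82 ± 0.61 (-0.36 to 2.01), and Ccnd1, 0.56 ± 0.60 (-0.62 to 1.73). The MEL input over the loci of Ccne1 and Ccnd1 was 2.04 and 0.784 times the ES-EP input. The fit does not take this out, and its part was not tested. The estimates for Ccne2 (0.090), Skp2 (0.041) and Cdk4 (-0.0080) changed sign with the processing, and those of Ccnd1, Ccnd3 and Ccne1 when 1 preparation was left out. The 95% intervals of the 10 windows reach from -2.42 to 2.01, so that a missing call does not show equal occupancy. The window past Ccnd3, in the Bysl intron, had an estimate of 2.25 ± 0.90 (0.49 to 4.01, unadjusted p = 0.0124, adjusted p = 0.524), which became 1.17 without ES-EP B and 2.93 without ES-EP A. It and the windows in Skp2 (1.20 ± 0.62) and Cdk6 (1.08 ± 0.61, and 0.41 and 1.77 without ES-EP B and A) lie away from promoters. They are shown because they were called in MEL cells and not in ES-EP, which by itself favours a difference in that direction. The Skp2 window became 0.79 with the input ratio of its chromosome subtracted, and 0.85 and 1.53 without MEL A and B. The Ccne2 promoter windows were also called in MEL cells only, and the 2 upstream ones had estimates of -0.51 and -0.57.

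**Figure D4:**
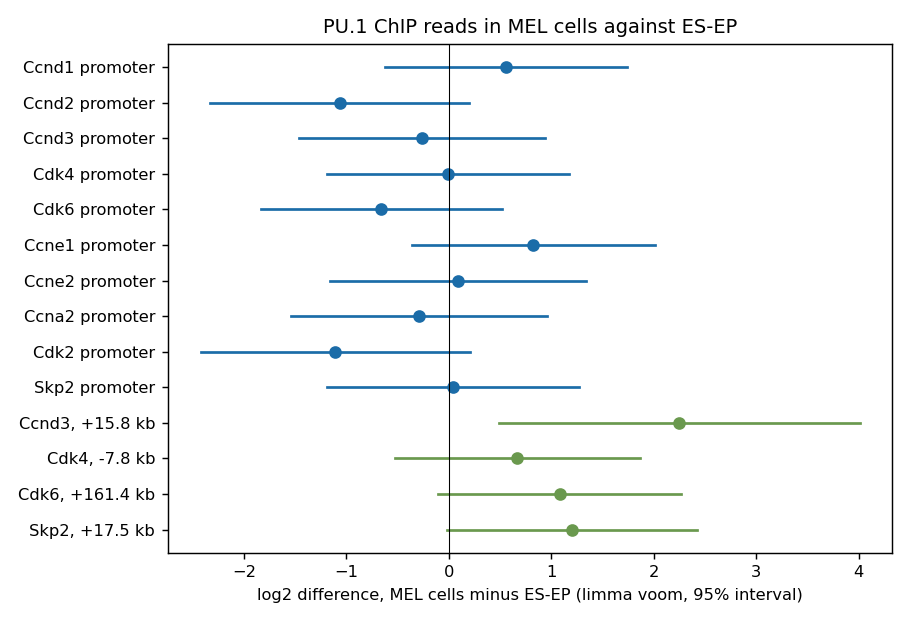
Log2 difference in PU.1 reads, MEL cells minus ES-EP, with the 95% interval from limma voom. Blue points are the highest promoter windows of the 10 genes and green points the called windows away from promoters, with their distance from the TSS in kb. Every promoter interval includes 0, and no window passes the adjusted threshold.

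The preparations within a cell type differed in strength. MEL B was above MEL A, in RPM, in the highest promoter window of 9 of the 10 genes, and ES-EP A was above ES-EP B in all 10. With preparation B alone, 8 of the 10 genes had a called promoter window in MEL cells, where the share of all genes rose to 40.4%. With A alone the same 3 were called as with both (14.5% of all genes). In ES-EP preparation A alone gave 5 genes (Ccnd2, Ccnd3, Cdk6, Cdk2 and Skp2), beside 24.2% of all genes, and B alone gave the 2 called with both, beside 10.2%.

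Other genes of the cyclin, CDK, SCF, CDK inhibitor, Rb and E2F families were counted by the same rule. The shares of all genes were 13.3% in MEL cells and 9.07% in ES-EP. These lists follow gene families, so that not every gene in them acts in G1 or at entry into S phase. Of 13 genes of the Rb and E2F families 8 had a called promoter window in MEL cells and 4 in ES-EP, among them E2f4, with 57 and 146 reads beside 6 input reads in MEL cells and 382 and 174 beside 20 in ES-EP. Of 7 CDK inhibitors 3 were called in MEL cells and 2 in ES-EP, of 13 other cyclins 4 and 4, and of 14 other CDKs and CDK activators 2 and 1. The cyclins called were Ccng1, Ccnl1 and Ccnt1 in both cell types, Ccng2 in MEL cells only and Ccnt2 in ES-EP only. The CDKs called were Cdk9 in both cell types and Cdk13 in MEL cells only. Of 5 genes whose products act with Skp2 in its SCF ligase, 1 was called in MEL cells (Cul1, the scaffold) and 0 in ES-EP. Fbxw7, which stood in the same list, encodes the substrate-binding subunit of another SCF ligase, one that degrades cyclin E, and was called in both cell types. It had 76 and 240 reads beside 8 in MEL cells and 441 and 183 beside 16 in ES-EP. In all, 19 of these 52 genes were called in MEL cells, where the share of all genes is 13.3%, 12 in ES-EP (9.07%), and 10 in both (5.70%). These lists too were drawn up with earlier results of these data known.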

How the data were processed

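PU.1 ChIP and input DNA of MEL cells and ES-EP were analysed in 8 PU.1 and 3 input libraries. According to the study's methods, the authors aligned the reads to mm9 with ELAND, whose version is not given in the sources used here, and kept unique alignments. The deposited files list 1 read of 27 or 28 bases per line with position and strand and no measured value, so all counts were made here. Of 3000 reads per library on chromosome 19, at least 99.6% matched NCBIM37 (mm9) with at most 2 mismatches.

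The letter of a library was taken as its preparation, and libraries of 1 preparation were summed. The 5′ end of each read was moved by 70 bp (MEL cells) or 65 bp (ES-EP) and counted in 500 bp windows of a fixed grid, repeated positions (1.59 to 9.00% per library) included. Local input was the largest of the window, the means over 5 and 10 kb, and the genome mean, scaled by total reads. Both preparations had to reach an adjusted p below 0.05 (Benjamini-Hochberg). The cell types were compared with limma 3.58.1 (voom, two-sided) in R 4.3.3, and other steps used Python 3.11.15 and scipy 1.17.1. Count tools were not used on lines of alignments. The scripts were tested on simulated data. The highest promoter window is the one within 2 kb of a TSS with the most depth-scaled PU.1 reads over the 4 preparations, which by itself raises ChIP over input where reads are few. Percentiles rank the highest promoter windows of all genes. Intervals of ratios are exact (Clopper-Pearson, 95%) and cover counting error only. Ratios against the floor of 3 reads have no interval. Genes and TSSs came from GENCODE on NCBIM37. All 10 genes were named by rule, with windows away from promoters where called, neighbours whose TSS is near, and Sfpi1 as control. Genes of the other lists that are named (E2f4, Fbxw7, Cul1 and the called cyclins and CDKs) were picked after their values were seen. The members and lists were chosen with earlier results of these data known. Alternatives were another grid, 1 read per position and strand, other thresholds, tests and scalings, and leaving out each preparation.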

Additional observations from a re-analysis of the deposited data

Results flagged for a closer look

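Among the 20 sets of 4 PU.1 libraries examined (10 genes, 2 cell types), 2 had a library far from the rest. This was judged by its gap to the nearest one relative to the range, where chance gives about 1 in 20 among like libraries. The 4 libraries come from 2 preparations that differed in strength, so that this rate is only a rough guide. Both are MEL library B2. At Ccne2 it had 5.88 RPM (reads scaled to 1000000 per library) in the highest promoter window, where the others had 2.43 to 3.02, and at Ccna2 it had 4.23, where the others had 2.92 to 3.02. With preparation A alone the Ccne2 promoter was still called in MEL cells. The Ccna2 promoter was called with preparation B alone and not with both or with A alone.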

How the results depend on the processing

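The number of genes with a called promoter window (3 in MEL cells, 2 in ES-EP) stayed the same with 1 read per position and strand, an adjusted p below 0.01 and windows shifted by 250 bp, where the share of all genes was 13.1 and 8.42%, 10.4 and 7.90%, and 13.0 and 9.09% in MEL cells and ES-EP, although the shifted grid exchanged Ccnd2 for Skp2 in MEL cells. The called windows in the loci, 9 in MEL cells and 3 in ES-EP, became 6 and 2 at the 0.01 threshold and 6 and 4 on the shifted grid. At 0.01 the calls lost were those past Ccnd3, in the Cdk6 intron and at the middle Ccne2 window in MEL cells, and upstream of Cdk4 in ES-EP. The inputs of the highest promoter windows held 0 to 6 reads in MEL cells and 5 to 38 in ES-EP, and the counting intervals of the ratios cover that depth. The exact binomial test against the input of the window alone left 0 windows and 0 genes in MEL cells and 1 window and 1 gene in ES-EP, and 1352 and 1921 windows in the genome. Summing the preparations gave 29 windows and 9 genes in MEL cells and 18 windows and 5 genes in ES-EP (27372 and 19714 windows, and 41.3 and 25.5% of genes, in the genome). Leaving out a preparation gave 11 to 22 windows and 3 to 8 genes in MEL cells (22223 windows in the genome without MEL A) and 3 to 16 windows and 2 to 5 genes in ES-EP (16973 without ES-EP B). Chosen after seeing the data, ES-EP input library 1 alone gave 5 windows and library 2 alone gave 3, with the same 2 genes, beside 15.1 and 8.51% of all genes.

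No window of the 10 loci differed between the cell types under any alternative, leaving out a preparation (0 to 0) included, and 0 to 10 had an unadjusted p below 0.05 (limma). Where 1 preparation was left in a cell type, it was assumed to vary like the others. The count of differing windows in the genome, 157, became 386 at 10 reads, 24 at 40 reads, 1369 with median-ratio scaling, 1743 with limma on log2(CPM + 0.5), and 0 to 41 without 1 preparation. The replicate block gave 0 windows in the loci and 10 in the genome, and the A minus B deviations of the cell types correlated with r = 0.00835, so that the letters were not treated as pairs. Of 163 log2 differences at named windows under alternatives 20 changed sign, none of them past the threshold (smallest adjusted p 0.0809 by limma). Cdk4 became 0.069 at 40 reads, 0.27 with median-ratio scaling, 0.048 on log2(CPM + 0.5) and 0.043 with the chromosome input ratio subtracted. Ccne2 became -0.37 and Skp2 -0.17 with shifted windows, and -0.027 and -0.088 with 1 read per position and strand. Skp2 became -0.37 with the chromosome input ratio subtracted and -0.026 with the replicate block. Leaving out 1 preparation gave ranges of -0.088 to 1.17 (Ccnd1), -0.80 to 0.29 (Ccnd3), -1.02 to 1.01 (Cdk4), -0.049 to 1.71 (Ccne1), -0.47 to 0.69 (Ccne2) and -0.52 to 0.61 (Skp2). The estimate at the window past Ccnd3 was 1.63 with the replicate block and 1.47 on log2(CPM + 0.5), and the highest Cdk6 promoter window, at -0.66, became -1.41 with shifted windows. The causes were not tested.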
